A study of Mus musculus with 4 samples.

Results

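The 39 protein-coding Hox genes of the mouse were examined, being all RefSeq genes on GRCm38 whose symbol is Hoxa, Hoxb, Hoxc or Hoxd followed by a number. They lie in 4 clusters of 11 (Hoxa, chromosome 6), 10 (Hoxb, chromosome 11), 9 (Hoxc, chromosome 15) and 9 genes (Hoxd, chromosome 2), out of 21900 protein-coding genes in the table. Peaks of 4 libraries were merged into 97394 regions, and 72 of these had a Hox gene as the nearest protein-coding gene interval within 100 kb. The assay was ATAC-seq. A transposase cuts and tags open DNA, and a peak is a stretch where the tagged fragments pile up above the background of that library. The cells were CD4 T cells carrying the SMARTA transgenic T cell receptor, which sees the GP61 peptide. They had been transferred as naive cells into mice bearing B16-GP61 melanoma and treated with cytoxan, a lymphocyte-depleting alkylating drug, and were sorted on day 11 from the lymph node that drains the tumor. The gate for TOX WT cells took PD1hi LAG3hi CD39hi cells positive for both Ly5.1 and Ly5.2. The gate for TOX KO cells took PD1lo LAG3lo CD39lo cells positive for Ly5.1 and negative for Ly5.2, so genotype, gate and congenic marker cannot be told apart. Each genotype had 2 libraries, numbered 1 and 2, and sets of 4 values below follow the order WT-1, WT-2, KO-1, KO-2. No source used here gives the age of the mice, the deleted part of Tox or whether libraries came from separate animals.

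Hox genes encode homeodomain transcription factors whose order along each cluster follows the order in which they are used along the body axis, from the anterior members with low numbers to the posterior members with high numbers. Outside their domains the clusters are classically held silent by Polycomb complexes and opened by MLL-type methyltransferases. In blood, several Hoxa and Hoxb genes are active in stem and progenitor cells and are shut off as lymphocytes mature. Transcription was not measured here, so silence itself could not be checked. The peak lists showed accessible regions in each of the 4 clusters and in each library.

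The lists held 43078 peaks in KO-1, 56852 in WT-1, 61489 in WT-2 and 61773 in KO-2. Read depth was not available from these lists. A region from 6990165 to 6991572 on chromosome 4, across the upper end of Tox, had a peak in WT-1 (deposited fold enrichment 6.57) and WT-2 (7.12) and in neither KO library. At least 1603 to 1900 peak numbers were missing from each list, so an absent peak can be one that was removed before deposit. All 12 T cell markers, among them Cd3e, Cd4 and Lck, had a region with a peak in every library, against 56.1% of protein-coding genes. These markers had 12.6 regions per gene against 3.78 over all protein-coding genes, which gives more occasions for a shared one. Of their 151 regions 49 (32.5%) were shared, against 27.6% of all regions. B cell markers had 93 and 104 regions with a peak in the WT libraries and 12 and 21 in the KO libraries, and myeloid markers had 63 and 71 against 28 and 41. Stromal and endothelial markers, of cells in which Hox genes are commonly active, had 25 and 34 against 19 and 26, with no region at Col3a1, Dcn or Tek and a region shared by every library at Pecam1 (6 of 16), Col1a1, Pdgfra and Cdh5. Melanocyte markers had 12, 9, 8 and 20 regions with a peak, with none at Dct, Slc45a2 or Sox10 and a shared region at Pmel (2 of 2), Mitf (2 of 6) and Mlana (1 of 3).

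The promoter sequences come first because the Hox start sites with a promoter window carried few peaks. RefSeq promoter windows of 300 bases (250 before to 50 after an annotated start, GRCm38.p6) matched 22 of the 39 genes, with 24 windows. The genes without an entry included Hoxa4, Hoxb2, Hoxb3, Hoxb5, Hoxb6, Hoxb7, Hoxb9, Hoxb13 and all the Hoxc genes other than Hoxc4. The windows below show the range from the window most rich in CpG to one that is poor in it, with their number of libraries with a peak. Capitals mark GGGCGG (the core of the GC box bound by Sp1-type factors) and TATAAA (the TATA box) on either strand. Overlapping matches were counted separately, and matches of both motifs cannot share a base.
Hoxa13, minus strand, chr6:52260831-52261130, peak in 3 libraries: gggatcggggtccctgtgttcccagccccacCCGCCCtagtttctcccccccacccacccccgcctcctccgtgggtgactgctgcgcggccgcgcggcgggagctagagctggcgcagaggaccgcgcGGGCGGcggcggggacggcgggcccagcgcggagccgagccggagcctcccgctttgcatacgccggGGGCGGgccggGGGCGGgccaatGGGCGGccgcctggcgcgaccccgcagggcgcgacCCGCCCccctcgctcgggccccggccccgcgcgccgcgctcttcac
Hoxd13, plus strand, chr2:74667975-74668274, peak in 2 libraries: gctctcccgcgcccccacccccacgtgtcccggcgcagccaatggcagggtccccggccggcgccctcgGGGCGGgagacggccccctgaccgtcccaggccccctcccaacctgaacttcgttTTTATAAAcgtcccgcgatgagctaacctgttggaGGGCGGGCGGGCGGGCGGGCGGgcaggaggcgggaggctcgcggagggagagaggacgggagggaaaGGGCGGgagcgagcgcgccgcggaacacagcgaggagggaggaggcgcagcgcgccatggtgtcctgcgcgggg
Hoxb4, plus strand, chr11:96318017-96318316, peak in 2 libraries: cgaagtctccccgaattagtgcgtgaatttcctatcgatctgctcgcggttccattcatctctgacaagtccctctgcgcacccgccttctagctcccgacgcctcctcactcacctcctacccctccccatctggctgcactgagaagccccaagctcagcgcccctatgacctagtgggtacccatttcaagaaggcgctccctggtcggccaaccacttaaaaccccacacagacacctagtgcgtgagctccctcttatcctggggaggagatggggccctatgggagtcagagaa
Hoxa5, minus strand, chr6:52204538-52204837, no peak: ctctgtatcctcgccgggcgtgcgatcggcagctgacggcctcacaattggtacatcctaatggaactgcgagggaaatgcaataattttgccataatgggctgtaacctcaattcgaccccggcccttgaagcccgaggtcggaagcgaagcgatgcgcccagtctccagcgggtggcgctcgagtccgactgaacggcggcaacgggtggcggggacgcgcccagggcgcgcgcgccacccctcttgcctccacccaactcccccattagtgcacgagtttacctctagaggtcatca
Hoxd4, plus strand, chr2:74721728-74722027, no peak: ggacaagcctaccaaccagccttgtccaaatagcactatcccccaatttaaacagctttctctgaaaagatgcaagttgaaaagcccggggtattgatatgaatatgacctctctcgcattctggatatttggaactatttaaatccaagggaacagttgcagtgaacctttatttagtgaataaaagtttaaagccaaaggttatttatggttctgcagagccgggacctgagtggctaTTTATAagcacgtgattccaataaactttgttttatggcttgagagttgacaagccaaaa

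None of the 24 Hox windows had a peak in every library, where 46.4% of the 21263 windows of protein-coding genes did. Another 19 Hox windows (79.2%) had no peak in any library, against 46.4% of all windows. The remaining 5 were at Hoxa3 (3 libraries, all but WT-1), Hoxa13 (3 libraries, all but KO-1), Hoxb4 (both WT libraries), Hoxd13 (WT-2 and KO-1) and the outer start of Hoxa10 (KO-1). Genes without a window are not counted here. Among them, a merged region with a peak in every library spanned the upper end of the Hoxa4 interval. Another spanned the lower end of the Hoxc9 interval. The Hox windows were not poorer in CpG than windows in general. They held a median of 14.5 CpG, with a range of 4 to 45, against a median of 13 over all windows and of 23 over those with a peak in every library. The ratio of observed to expected CpG had a median of 0.626, against 0.567 over all windows and 0.806 over those with a peak in every library. Hoxa13 and Hoxd13, which pattern the distal limb and the genital tract, had 45 and 37 CpG and 6 and 7 GC-box matches, and each had a peak in some libraries. Hoxa5, which acts in lung and skeletal patterning, had 29 CpG at a ratio of 1.02 and no peak. Hoxd4 had 4 CpG, 1 TATAAA match and no peak. GGGCGG stood in 10 of 24 Hox windows (41.7%) against 46.2% of all windows, and TATAAA in 4 (16.7%) against 12.6%. When each window was widened by 500 bp on either side, 2 Hox windows had a peak in every library, at Hoxa10 and Hoxb4, and 14 had none, against 48.9% and 43.2% of all windows. This wider setting was chosen after the data were seen.

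**Figure D1:**
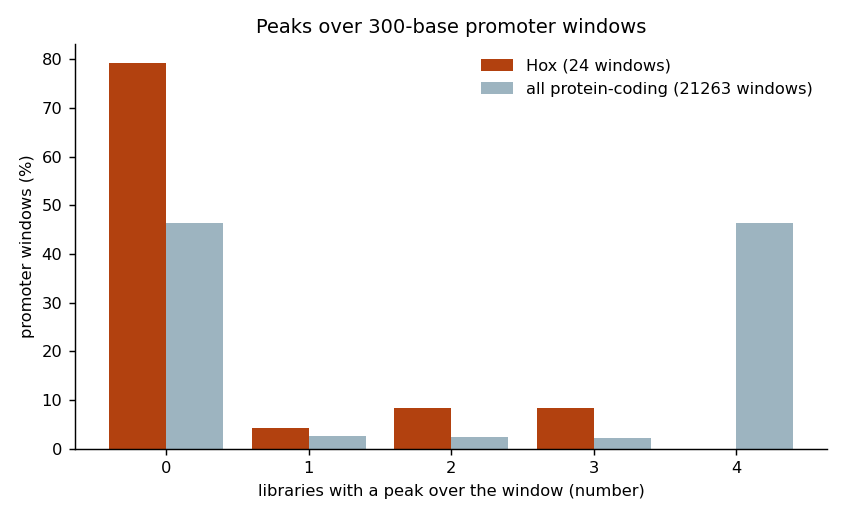
Percent of 300-base promoter windows (vertical axis) by the number of libraries with a peak over the window (horizontal axis), for 24 Hox windows and 21263 windows of protein-coding genes. No Hox window stands at 4 libraries, and 79.2% stand at 0.

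Regions with a peak in every library numbered 17 of 72 (23.6%), against 27.6% of all merged regions, a share near the background. A further 35 (48.6%) had a peak in 1 library, against 48.4% of all regions. Of the 39 genes, 28 (71.8%) had at least 1 region, against 75.5% of protein-coding genes, and 16 (41.0%) had a region with a peak in every library, against 56.1%. The 11 genes with no region were Hoxa2, Hoxa5, Hoxa6, Hoxb7, Hoxc4, Hoxc5, Hoxc11, Hoxc12, Hoxd1, Hoxd4 and Hoxd10. The 17 shared Hox regions had a median width of 596 bp (range 275 to 1473), where all 26867 shared regions had a median of 851 bp. Of the 72 regions, 42 had their midpoint inside a Hox gene interval, 7 lay within 1 kb of one and 23 farther out. Exons, introns and UTRs are not distinguished in the table.

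**Figure D2:**
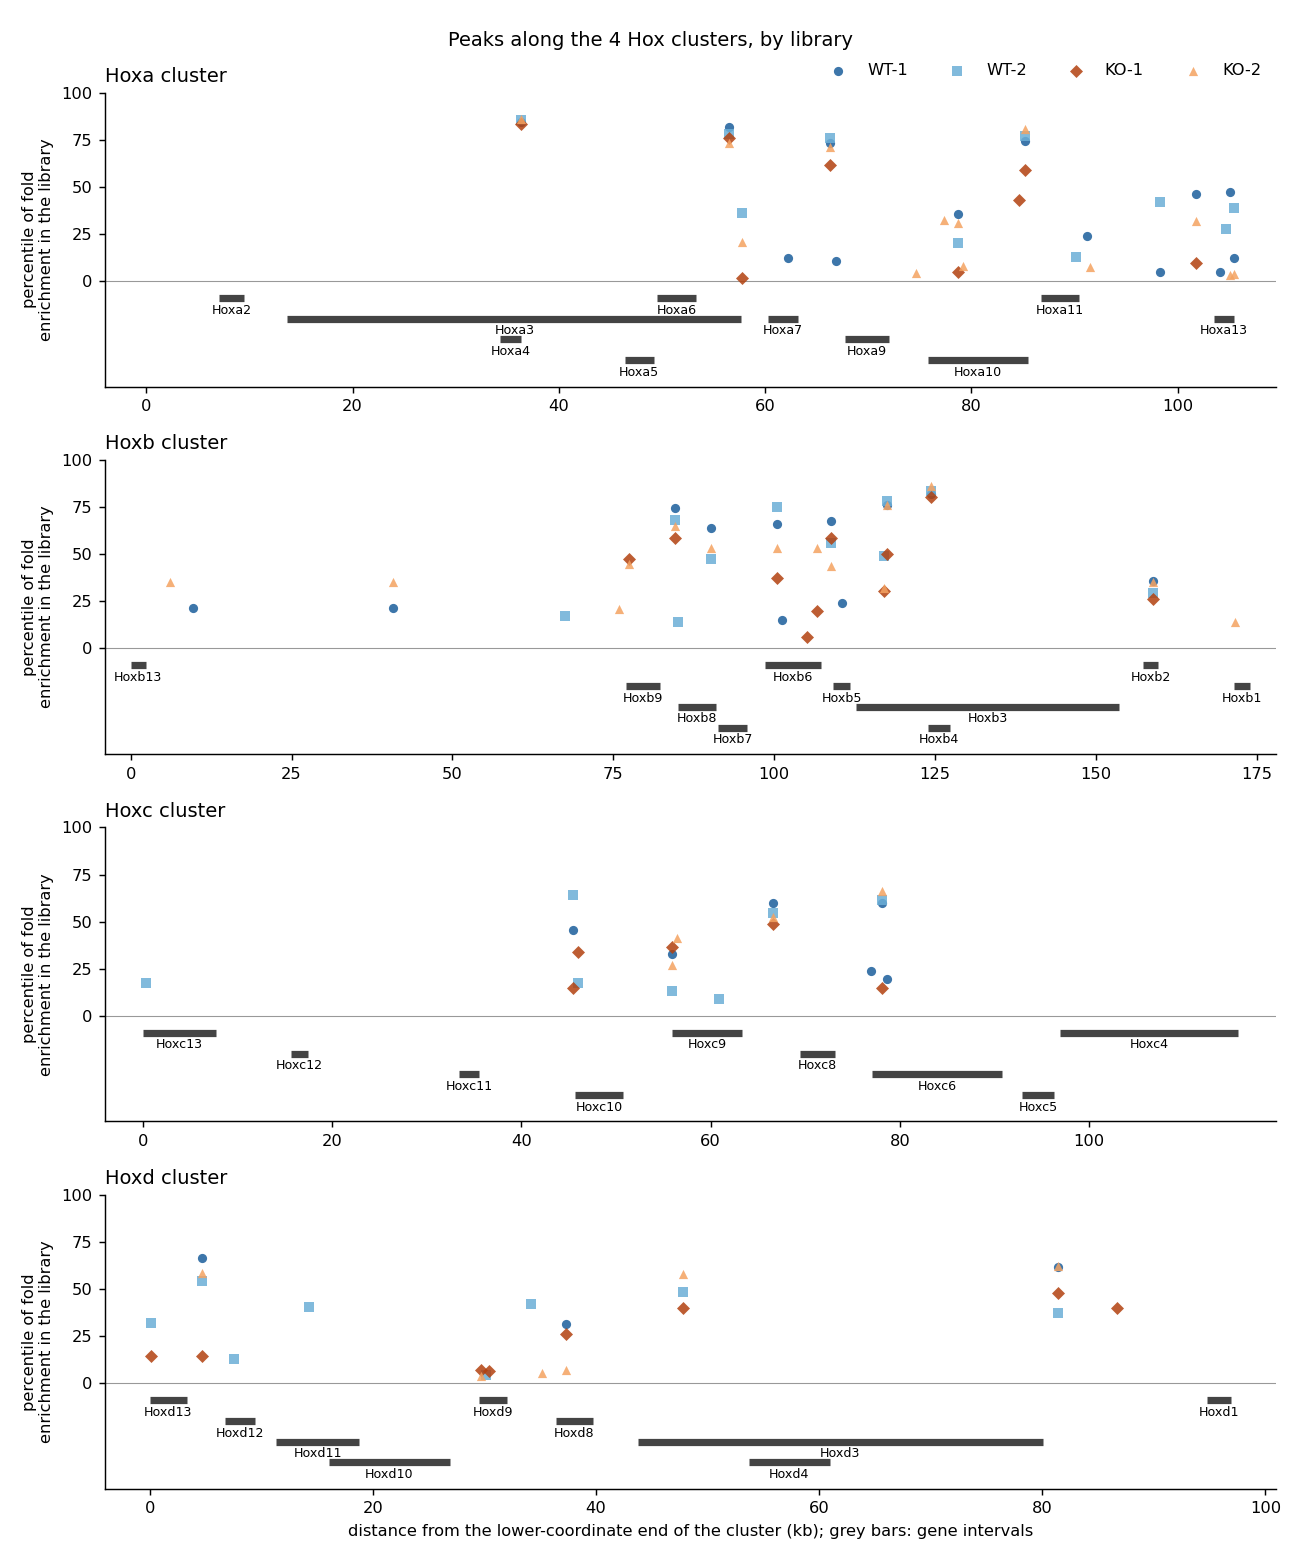
Percentile of fold enrichment within each library (vertical axis) for most regions whose midpoint lies inside a cluster, by distance from the lower-coordinate end of the cluster in kb (horizontal axis). Symbols are libraries and grey bars are gene intervals; the points near 80 at Hoxa4 and Hoxb4 come from all 4 libraries, and the Hoxc panel has no point beyond Hoxc6.

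The Hoxa cluster had the most regions for its length. It holds 11 genes in 105.5 kb and had 26 regions, 6 of them with a peak in every library. Regions inside the cluster numbered 20.9 per 100 kb in Hoxa, 13.4 in Hoxd, 11.5 in Hoxb and 8.64 in Hoxc, where the protein-coding gene intervals of the genome had 5.07. For regions with a peak in every library the densities were 5.69 in Hoxa, 3.45 in Hoxb, 2.59 in Hoxc and 2.06 in Hoxd, against 1.67 in gene intervals. Gene intervals hold no sequence between genes, whereas the cluster intervals do.

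Peaks covered 5.22%, 4.89%, 4.42% and 5.33% of the Hoxa interval. Hoxb was covered to 2.15%, 2.25%, 1.88% and 2.68%. Hoxc was covered to 1.48%, 1.70%, 1.03% and 1.01%, and Hoxd to 1.51%, 2.27%, 2.42% and 2.09%. Hoxa was the highest and Hoxc the lowest in every library, while Hoxb and Hoxd changed order between libraries. Gene intervals were covered to 1.59%, 1.73%, 1.26% and 1.59%.

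**Figure D3:**
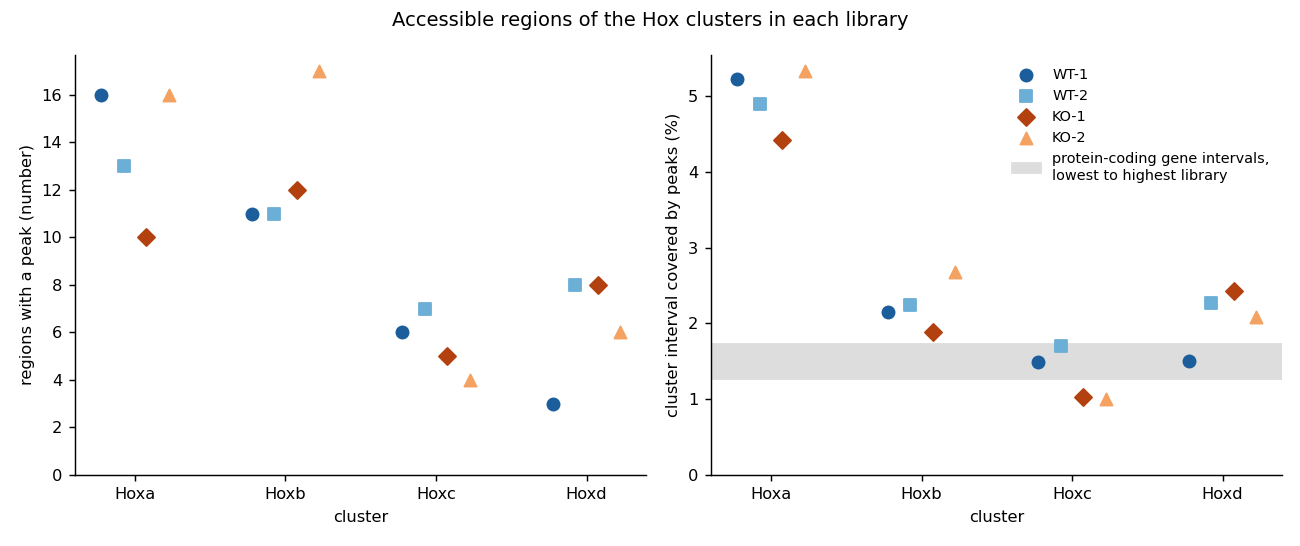
Number of regions with a peak (left) and percent of the cluster interval covered by peaks (right) for each cluster, with 1 point per library. The grey band spans the libraries' coverage of protein-coding gene intervals, from 1.26% to 1.73%; all Hoxa points lie above 4%.

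The deposited fold enrichment was compared between clusters by its percentile within each library. Fold enrichment and percentile are the authors' values or ranks within 1 list, and lists differ in length, so values of different libraries are set side by side as a description and show no change. Over shared regions the median percentile in Hoxa was 74.2, 77.7, 68.9 and 76.9. The Hoxb medians were 71.0, 71.7, 54.3 and 59.2. The Hoxc medians were 59.7, 54.8, 36.7 and 52.3, and those of Hoxd were 64.0, 45.8, 31.2 and 60.4. Hoxa was highest and Hoxb next in WT-2, KO-1 and WT-1, and in KO-2 Hoxd at 60.4 lay above Hoxb at 59.2. Over all 26867 shared regions the medians were 74.1, 76.0, 68.3 and 77.9, so the Hoxa medians lay close to the background in each library and those of the other clusters below it. These medians rest on 6, 6, 3 and 2 regions. Among the 20000 peaks of each library with the highest -log10 q, there were 5 Hoxa and 5 Hoxb regions and none at Hoxc or Hoxd.

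Only the regions at Hoxa4 and Hoxb4 stood above a percentile of 80 in every library. Hoxa4 and Hoxb4 belong to 1 paralog group, the copies of an ancestral gene in different clusters, and each had 1 region with a high peak in every library. The Hoxa4 region, chromosome 6, 52190966 to 52192438, spans the upper end of the gene and was the widest Hox region at 1473 bp. Its deposited fold enrichment was 9.56, 9.65, 7.85 and 11.2, at percentiles of 84.5, 85.3, 83.3 and 85.7. All 4 libraries were high there, and the percentiles of the genotypes overlapped.

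Hoxb4, a gene known to expand blood stem cells when overexpressed, had its region on chromosome 11 at 96318112 to 96319343 (1232 bp). The fold enrichment was 8.77, 8.96, 7.19 and 11.4, at percentiles of 82.1, 83.4, 80.4 and 86.1. The region reached over the promoter window printed above in both WT libraries, while the KO peaks began inside the gene. The other members of the paralog group, Hoxc4 and Hoxd4, had no region.

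Hoxa3, needed for thymus and parathyroid formation, had a region of 860 bp at 52211429 to 52212288, near the upper end of its interval and overlapping the noncoding gene Hoxaas3. Its fold enrichment was 8.68, 7.41, 6.31 and 7.35. The strongest points of the 4 libraries lay within 3 bp of each other.

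The progenitor gene Hoxa9, an oncogene of myeloid leukemia, had its shared region outside the gene, 1400 bp from the interval on the side of Hoxa7 (52221307 to 52222088). The fold enrichment there was 6.61, 6.91, 4.43 and 6.98. Hoxa10, which also acts in blood progenitors and in the uterus, had 6 regions, more than any Hox gene but Hoxa13 with 8. Its strong shared region at 52240269 to 52240853 ended 1 bp short of the outer annotated start and had 6.80, 7.20, 4.24 and 9.41. Its weak shared region, at 52233890 to 52234350, had 3.36, 2.70, 2.57 and 3.32. KO-1 had the lowest fold enrichment at both Hoxa10 regions and at Hoxa9.

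In the middle of the Hoxb cluster, shared regions stood at Hoxb8, Hoxb6, Hoxb5 and Hoxb3. The Hoxb8 region, at 96278840 to 96279114 and 424 bp from the gene interval, was 275 bp wide and had a fold enrichment of 6.88, 5.64, 4.22 and 5.86. At Hoxb3 the region from 96311593 to 96312030 had 7.19, 7.45, 3.68 and 8.06, so KO-1 alone was low. The Hoxb6 region, at 96294428 to 96295023, had 5.50, 6.70, 3.19 and 4.45. The Hoxb5 region, at 96303011 to 96303356 and 329 bp from the gene, stood at percentiles of 67.5, 56.0, 58.4 and 44.0. Both regions overlap the noncoding gene Hoxb5os. The region at Hoxb2, at 96352912 to 96353515, was weak in every library, with 3.36, 2.97, 2.95 and 3.49, and the libraries' strongest points there were spread over 443 bp.

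Hoxc and Hoxd had few shared regions, and KO-1 was low at several. At Hoxc6 the region from 102999011 to 102999578 had percentiles of 59.7, 61.5, 14.7 and 66.3. At Hoxd13 the region from 74672564 to 74673329, outside the gene, had 66.4, 54.1, 14.7 and 58.4. The KO-1 peaks of both regions were weak, each with a -log10 q of 2.25 where the lowest in that list was 2.00. At the Hoxd13 region the strongest points of the libraries were spread over 382 bp. At Hoxc8 the percentiles ran from 48.5 to 60.1, and between Hoxd3 and Hoxd1, over the noncoding gene Haglr, from 37.5 to 62.3. The Hoxc9 region was weaker, with a fold enrichment of 2.59 to 3.26. At 12 of the 17 shared regions the 4 strongest points lay within 60 bp, and the widest spread was the 443 bp at Hoxb2.

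**Figure D4:**
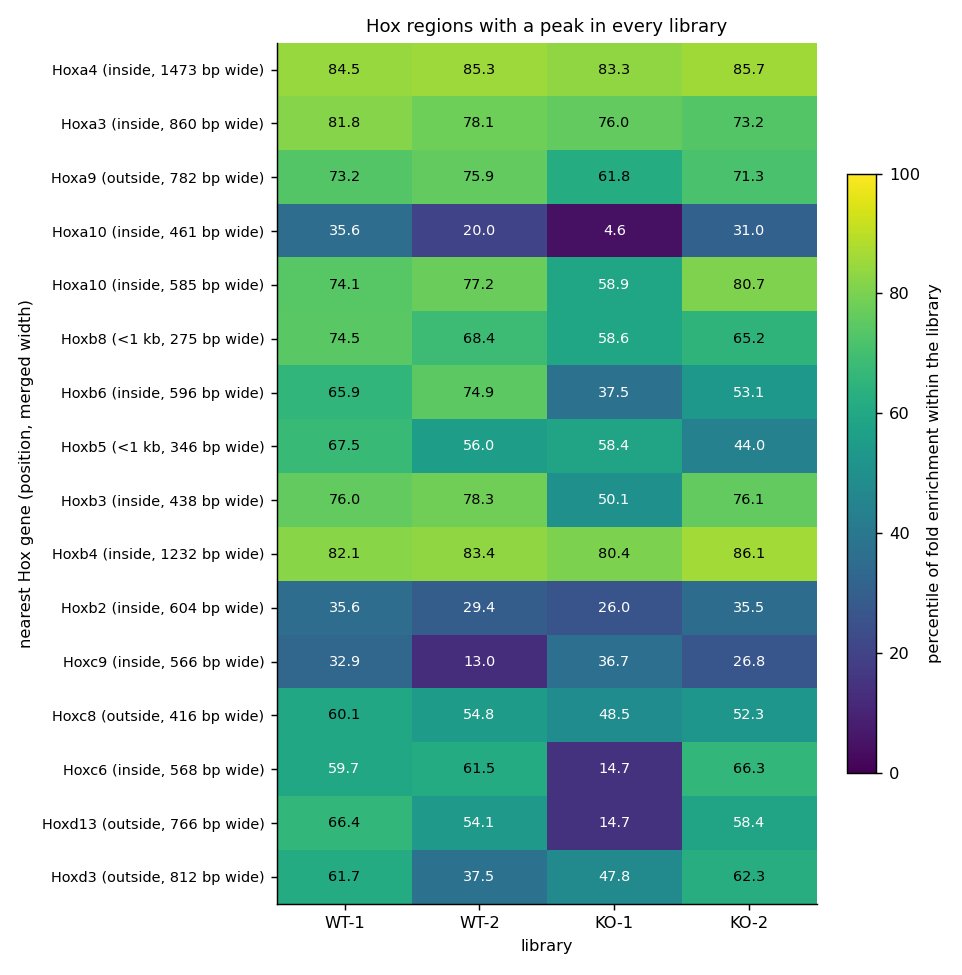
Percentile of fold enrichment within the library, by colour and number, for all but 1 of the 17 Hox regions with a peak in every library (rows, in cluster order, with position and width) in the 4 libraries (columns). Hoxa4 and Hoxb4 are above 80 in every column, and the KO-1 column holds the low values at Hoxa10, Hoxc6 and Hoxd13.

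At 6 regions the deposited -log10 q reached 10 in every library, among them those nearest to Hoxa4, Hoxa3, Hoxa9, Hoxb8 and Hoxb4. Regions seen in 1 library were weak: their percentiles ran from 4.37 to 43.1 with a median of 17.2, and their widths from 150 to 527 bp with a median of 201 bp. Of these 35, WT-1 held 9, WT-2 11, KO-1 4 and KO-2 11. By paralog class, the anterior genes (groups 1 to 3) had 5 shared regions of 15, the central genes (groups 4 to 8) 7 of 18 and the posterior genes (groups 9 to 13) 5 of 39. The posterior genes therefore held most of the regions and the smallest share seen in every library (12.8%, against 33.3% and 38.9%). Over all merged regions this share was 27.6%, and the differences between classes were not tested. The Hoxa4 and Hoxb4 regions count as central here and would be anterior if given to Hoxa3 and Hoxb3. Hoxa13 alone had 8 regions, none of them shared by every library. Hoxc10, a posterior gene, came close with a region at 102966323 to 102966762 that had a fold enrichment of 3.82 (WT-1), 5.09 (WT-2) and 2.78 (KO-1) and no peak in KO-2. In all, 10 Hox regions had a peak in 3 libraries and 10 in 2.

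Some stretches in and beside the clusters held no peak in any library. Whether they are longer than stretches without a peak elsewhere in the genome was not tested. Regions inside each cluster were denser than in gene intervals, as given above. Between regions inside the cluster intervals, the longest were 31.9 kb in Hoxa, 33.6 kb in Hoxb, 44.8 kb in Hoxc and 33.1 kb in Hoxd. The longest touching a cluster ran for 153.0 kb from Hoxc6 to the DNA repair gene Smug1 (chromosome 15, 102999964 to 103152945) and contained Hoxc5 and Hoxc4. Most of it lay beyond the end of the Hoxc interval at 103036856. Another of 44.8 kb, from 102921522 to 102966322, contained Hoxc12 and Hoxc11. In Hoxa an empty stretch of 31.9 kb contained Hoxa2 and part of the Hoxa3 interval. In Hoxd a stretch of 33.1 kb (74716162 to 74749250) contained Hoxd4, and one of 70.4 kb (74755024 to 74825457) contained Hoxd1. Most of the latter lay beyond the end of the Hoxd interval at 74765142. A stretch of 73.0 kb (96127233 to 96200194) contained Hoxb13, but most of it lay before the start of the Hoxb interval at 96194316. The stretch between the Hoxb4 and Hoxb2 regions ran for 33.6 kb.

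The clusters also hold microRNA genes that are known to target Hox messages, and their mature sequences are shown to set the shared seeds side by side. Capitals mark the seed, bases 2 to 8, from RefSeq on GRCm38.p6.
miR-196b-5p (Hoxa): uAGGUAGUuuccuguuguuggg
miR-196a-5p (Hoxb and Hoxc): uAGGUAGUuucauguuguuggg
miR-10a-5p (Hoxb): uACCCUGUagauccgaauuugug
miR-10b-5p (Hoxd): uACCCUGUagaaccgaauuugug

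The miR-196 copies share 1 seed and the miR-10 copies another. The Mir196b hairpin (chromosome 6, 52230081 to 52230165) lay under a region near Hoxa10 that had a peak in KO-2 only. Mir10a lay 838 bp from the shared Hoxb4 region, and Mir10b 9909 bp from the nearest region. The Mir196a-1 and Mir196a-2 hairpins lay 3304 and 3344 bp from theirs.

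The number of Hox regions with a peak did not separate the genotypes. It was 36, 39, 35 and 43, a mean of 37.5 ± 2.12 for WT against 39 ± 5.66 for KO (SD, n = 2 per genotype, two-sided exact permutation p = 1.0). With 2 libraries against 2 the smallest p that this test can give is 0.33. By cluster, the WT and KO values did not overlap for Hoxb, with 11 and 11 in WT against 12 and 17 in KO, or for Hoxc, with 6 and 7 against 5 and 4. Hoxc coverage did not overlap either, at 1.59% ± 0.156 for WT against 1.02% ± 0.0189 for KO (SD, n = 2 per genotype). Each of these 3 comparisons had an exact permutation p of 0.33, as any 2 against 2 without overlap has, and an adjusted p of 1.0 over the 10 made. Over all regions, 52971 and 58653 had a peak in the WT libraries against 39873 and 58428 in the KO libraries. Gene intervals were covered to 1.59% and 1.73% in WT against 1.26% and 1.59% in KO. The direction of the difference over all Hox regions turned for strong peaks. Regions with a -log10 q of at least 10 numbered 16 and 14 in the WT libraries against 7 and 11 in the KO libraries (two-sided exact permutation p = 0.33). Over all regions these numbers were 26637 and 28966 against 17098 and 26074, so WT libraries had more strong regions in general.

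Only 5 Hox regions followed the genotype. A single WT-only region, with a peak in the 2 WT libraries alone, was found, 1.39% of the 72 against 8.8% of all regions. It lay between Hoxa11 and Hoxa13 at chromosome 6, 52253415 to 52253879, 5206 bp from the Hoxa13 interval, where fold enrichment was 2.58 (WT-1) and 3.44 (WT-2). The WT peaks there were weak, at percentiles of 5.00 and 41.9.

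KO-only regions, the reverse pattern, numbered 4, 5.56% against 1.78% of all regions. The region inside Hoxb9, at 96271527 to 96272008, had 3.58 (KO-1) and 3.93 (KO-2) for fold enrichment. The region inside Hoxb6, at 96300727 to 96301109, had 2.82 and 4.44. The region inside Hoxd9, at 74697879 to 74698041, had 2.69 and 2.78 and was 163 bp wide. The last lay 36789 bp from Hoxb1 on the side of Skap1, a T cell adaptor gene, at 96404890 to 96405197, with 3.60 and 3.96. All of these percentiles were at most 53.1, and the strongest points of the KO libraries lay within 16 bp in each region. With peaks at a -log10 q of at least 5, there were 1 KO-only and 2 WT-only Hox regions, and at 10 there were 0 and 1. Of all regions, 2.19% were KO-only and 13.5% WT-only at 5, and 1.85% and 13.2% at 10. In the same libraries, 3 of 151 T cell marker regions were WT-only and 15 were KO-only, and of 124 B cell marker regions 61 and 2. The part of the cell make-up of the libraries in the Hox counts was not tested.

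The protein-coding genes beside the clusters varied widely. Skap1, next to Hoxb1, had 26 regions, 10 with a peak in every library and none that followed the genotype. Smug1, beyond Hoxc4, had 4 shared regions of 7. Snx10, near Hoxa, had 7 of 11. Evx1 and Evx2, homeobox genes that adjoin Hoxa13 and Hoxd13, had 0 of 1 and 1 of 3, and Hibadh, a valine catabolism gene beyond Evx1, had 1 of 10 and 5 WT-only regions. Over the 16 neighbours 37 of 94 regions (39.4%) were shared, against 27.6% of all regions, and the difference was not tested. WT-only regions of the neighbours numbered 8 (8.51%), against 8.8% of all regions.

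Other developmental homeobox genes (65 genes such as Dlx, Lhx and Pax members) were the closest comparison. Of their 224 regions 34 (15.2%) had a peak in every library, against 17 of 72 Hox regions (23.6%), and 21 of 65 genes (32.3%) had such a region, against 16 of 39 Hox genes (41.0%). They had 3.45 regions per gene, against 1.85 for the closely packed Hox genes. Their shared regions had a median percentile of 55.3, 59.4, 49.2 and 63.8, where the 17 Hox regions had 67.5, 68.4, 50.1 and 65.2. Ribosomal protein genes, open in any cell, had 135 shared regions of 262 (51.5%) and a median shared width of 1053 bp. None of these differences between lists was tested.

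Genes of the proteins that act with or on Hox genes were read against the 56.1% of all protein-coding genes that had a shared region. Genes with more regions have more occasions for a shared one. Regions per gene numbered 6.73 for TALE cofactors, 6.86 for Polycomb genes and 6.93 for the MLL list, against 3.78 over all protein-coding genes. Among the TALE cofactors, which bind DNA beside Hox proteins, 10 of 11 had a shared region, with Meis1 the exception at 0 of 7, and Meis1 had 3 WT-only regions. Of the 74 TALE regions 17 (23.0%) were shared, against 27.6% of all regions, and 7 (9.46%) were WT-only, against 8.8%. Of the 29 Polycomb genes, 26 had one, and Eed, a core subunit of the complex that methylates H3K27, had 4 WT-only regions of 17. Of the 199 Polycomb regions 72 (36.2%) were shared and 14 (7.04%) were WT-only. All 15 genes of the MLL and H3K27 demethylase list had one, including Kmt2a, which encodes MLL1 and keeps Hox genes on in progenitors. Of the regions of that list 36.5% were shared and 6.73% were WT-only. Of the Cdx and Evx genes, regulators and relatives of the clusters, 2 of 5 (40.0%) had one, and Cdx4 had 2 regions, both WT-only. Only 8 regions belonged to these genes, 3 of them (37.5%) WT-only. Blood progenitor markers had 14 shared regions of 55 (25.5%, against 27.6% of all regions), and Kit, Mecom, Meis1 and Gfi1b had none.

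**Figure D5:**
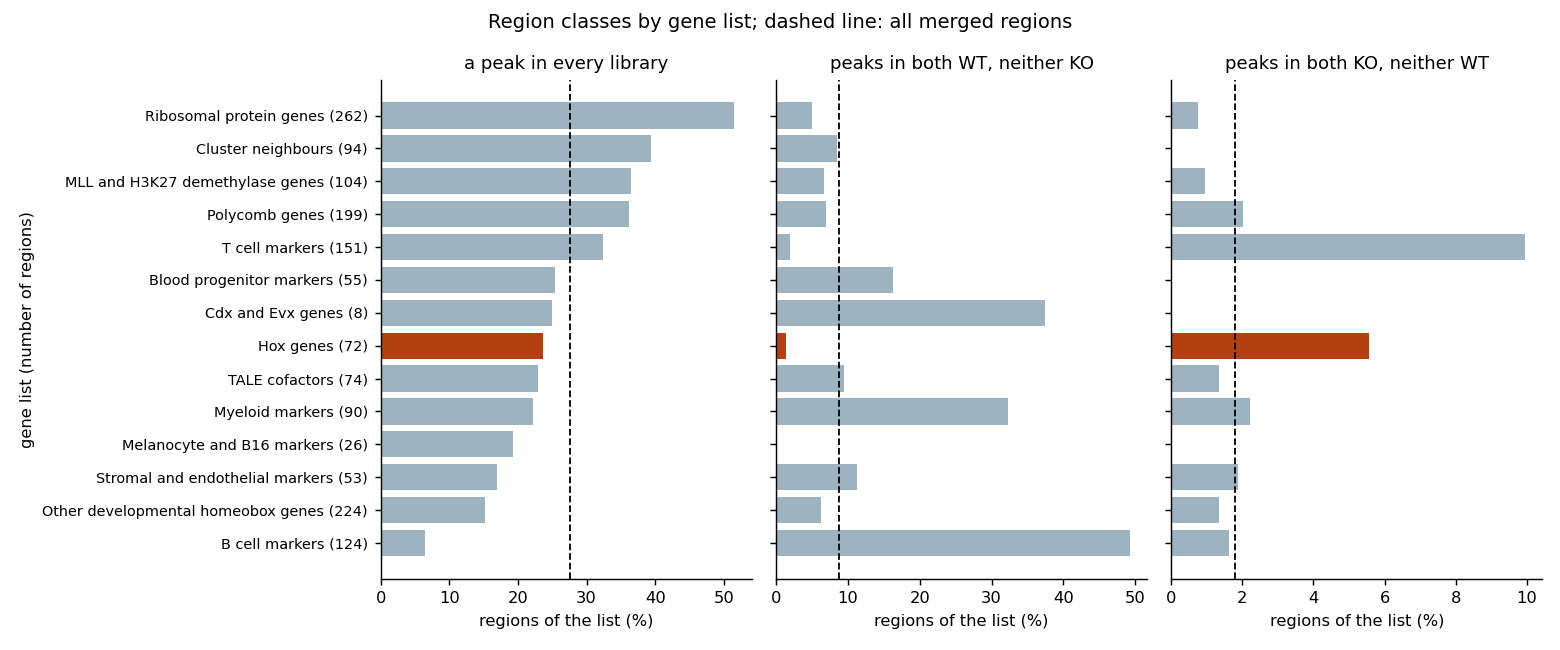
Percent of the regions of each gene list (horizontal axes) that had a peak in every library (left) or were WT-only (middle) or KO-only (right), with the number of regions in brackets. Dashed lines mark all merged regions at 27.6%, 8.8% and 1.78%; the Hox bar stands at 23.6%, 1.39% and 5.56%.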

How the data were processed

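ATAC-seq peak lists of 4 libraries (2 WT, 2 KO) were analysed. The submitters' processing notes name GRCm38 and mm10 as builds, and the tools MACS2, BWA, Picard, SAMtools and deepTools. No source used here gives their versions, settings, filters or any read shifting. Each deposited list has 10 columns, 1 library and no header. In the narrow-peak layout, the fold enrichment (a ratio) and the -log10 q value that the authors deposited compare a peak with its own library's background, and the lowest -log10 q was just over 2. A deposited score column stayed unused. No read counts are given, so no counting interval was set.

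Peaks overlapping by 1 bp were merged, and a region went to the protein-coding RefSeq gene (GRCm38.p6) with the nearest interval to its midpoint, within 100 kb. Ties went to the shortest gene. If a region held several peaks of a library, the highest value was taken. WT and KO libraries were compared by exact permutation tests over libraries, adjusted by Benjamini-Hochberg over 10 comparisons. Lists were described by counts. The p-values measure only the spread between these libraries, which may be technical. Every Hox gene could be named, but values of 1 are not reported here; counts and medians include it. Of other lists, members with a genotype-specific region were eligible, up to 4 per list, and the further genes named were chosen after their values were seen. The members and lists were chosen with earlier results of these data known. Merging and assignment were tested on simulated data. Alternatives were stricter peaks, equal list lengths, another overlap, narrower assignment, each library left out and a replicate block. Python 3.11.15, pandas 2.3.3.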

Additional observations from a re-analysis of the deposited data

How the results depend on the processing

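Read depth is unknown, and KO-1 has the shortest list, and the part of depth in its absent peaks was not tested. Most Hox peaks are weak, and the counts fall with the threshold. At a -log10 q of at least 5 there were 31 Hox regions (12 Hoxa, 11 Hoxb, 3 Hoxc, 5 Hoxd), 10 in every library, 2 WT-only and 1 KO-only. Of all regions at that setting 41.7% were in every library, 13.5% WT-only and 2.19% KO-only. At 10 there were 18 (6, 7, 3 and 2 by cluster), 6 in every library and 0 KO-only, against 43.4% and 1.85% of all regions. With the 20000 strongest peaks of each library there were 10 (5, 5, 0 and 0), 6 in every library, and 0 of either genotype-specific kind. Of all regions at that setting 53.3% were in every library, 8.96% WT-only and 6.77% KO-only. Joining peaks by 50% of the shorter one gave 0 WT-only Hox regions, against 8.62% of all regions. The WT minus KO difference of -1.5 regions turned to 4.5, 6.0 and 1.0 under the 3 stricter settings and to 1.0 with assignment within 10 kb (two-sided exact permutation p from 0.33 to 0.67).

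Leaving out each library in turn gave 61 to 69 Hox regions, 3 to 13 WT-only and 7 to 15 KO-only regions, a difference from -5.0 to 2.0 (2.0 without KO-2), and 0 to 1 promoter windows with a peak in every library left (1 without KO-1 and 1 without WT-1). A class then needs a peak in fewer libraries. The shares over all regions were not computed with a library left out, so these WT-only and KO-only counts have no background to be read against. The sign of the difference turned without KO-2 alone. Windows widened by 500 bp gave 2. With the replicate block the difference was -1.5 (exact permutation p = 1.0, smallest possible 0.5), and the block changed no call. Over all alternatives, 67 values did not reverse or stayed within 1.5 times, 35 moved further and 5 reversed. The 67 include a WT minus KO difference of 0.0, found inside the cluster intervals and without WT-1.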
